A study of Mus musculus with 9 samples.

Results

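The NRF2 antioxidant response genes examined here are 10 named genes out of 53353 entries in the count table of a mouse dental papilla series. They comprise Nfe2l2, the gene of the transcription factor NRF2, and 9 genes widely used as readouts of it: Nqo1, Hmox1, Gclm, Gclc, Txnrd1, Srxn1, Slc7a11, Osgin1 and G6pdx. Members were taken by gene symbol, and all 10 have a row in the table. Of these, 9 carry counts and passed the filter on low counts, while G6pdx is listed at 0 in every library for a reason of annotation given below.

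Dental papilla cells are tooth germ mesenchyme and give rise to the pulp and to odontoblasts, the cells that lay down dentin. RNA was sequenced from dental papilla cells of C57BL/6 mice in 3 groups of 3 libraries, namely primary cells, monolayer cultures on plates and 3D spheres. The labels' protocols give a monolayer medium (EpiCM) with 2% serum and 1% growth supplement. Spheres came from cells of passage 2, kept in methylcellulose-containing basal medium on plates of ultra-low attachment, so that format, serum, supplement and passage cannot be told apart between the cultures. Culture lasted 8 days in the source labels of both, whereas a protocol text has 14 days for monolayers, and the group called primary by its samples is DPC P2 in the design text. No genetic change and no added oxidant or drug is named for any group, and the age of the mice is not given in the sources used here. Whether replicate libraries stem from different animals or dishes is not stated, and p-values cover the spread among these libraries alone, possibly a technical one.

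NRF2 is held low in unstressed cells by KEAP1, an adaptor that presents it to a ubiquitin ligase built on CUL3. Oxidants and electrophiles modify cysteines of KEAP1, NRF2 then accumulates, pairs with a small MAF protein and binds antioxidant response elements in its target genes. These targets make and recycle glutathione, reduce thioredoxin and peroxiredoxins, degrade haem, detoxify quinones and supply NADPH. In mouse bone the factor is known as a brake on osteoclast formation. The protein was not measured here, and transcript levels of the factor and its targets are all that the values below describe.

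Libraries held 35957376 to 52047254 counts in genes, and the labels give no batch or date. Levels are given as CPM, the count of a gene relative to its library's total after scaling with TMM factors, which ran from 0.861 to 1.08. A gene's CPM depends on its length, so levels are compared between groups and not between genes. The ratio of Gclm to Gclc counts given below is likewise compared between groups only. All 11 dental mesenchyme markers had counts in every group and summed to 46381 to 47773 CPM in primary cells, 89469 to 98632 CPM in monolayer and 29148 to 31095 CPM in spheres, mostly Col1a1. Markers of other cell types moved between the groups as well. Over 12 macrophage markers the sum was 24.8 to 27.7 CPM in primary cells, 9.82 to 11 CPM in monolayer (Fcgr1 at 0) and 48 to 51 CPM in spheres. Over 10 epithelial markers it was 216 to 221 CPM, 3.12 to 3.99 CPM (Enam at 0) and 572 to 585 CPM in the same order, with Ambn giving 524 CPM of the last. Over 8 endothelial markers it was 13.6 to 15.8, 28 to 29.2 (Erg and Cldn5 at 0) and 1.12 to 1.31 CPM (Cdh5 and Tie1 at 0). Kdr alone gave 13.2 CPM in primary cells and 27.5 CPM in monolayer. Of the 5 endothelial markers tested, 2 were higher and 2 lower in monolayer than in primary cells. In spheres 1 was higher and 3 were lower than in monolayer. The 8 erythroid markers stayed at 2.5 CPM or less in sum, with both Hbb genes at 0 in all groups and Hba-a1 and Hba-a2 at 0 outside the spheres. The spans of Alas2 and Amelx lie wholly within other genes (Apex2 and Arhgap6), so their 0 in all groups is no measurement. The 7 odontoblast markers summed to 27381 to 28207 CPM in spheres against 296 to 298 CPM in primary cells and 145 to 153 CPM in monolayer, where Dspp was at 0 in both. Dmp1 gave 18317 CPM of the sphere sum, whereas Sp7 gave most in primary cells (207 CPM) and monolayer (129 CPM).

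Spheres stood apart from both other groups for nearly all measured members. Against monolayer, 8 of the 9 measured members rose and Gclc fell, in a comparison where 78.4% of all genes tested changed. Against primary cells, where 79.6% changed, the split was again 8 higher and Gclc lower. The increases from monolayer to spheres ran from 1.99-fold for Hmox1 and Gclm to 14.5-fold for Slc7a11, and those from primary cells to spheres from 1.41-fold for Gclm to 12.1-fold for Nqo1. A change means an adjusted p under 0.05 (edgeR quasi-likelihood test, Benjamini-Hochberg adjustment over 15675 genes). By direction, 40.7% of all genes rose and 37.7% fell from monolayer to spheres, and 38.9% were higher and 40.6% lower in spheres when primary cells were the reference. Sphere libraries did not overlap with those of monolayer for any of the 9 members, as for 78.3% of all genes, nor with those of primary cells, as for 81.2%. A second rule, a change tested to exceed 2-fold (glmTreat in edgeR), was met upward by 6 of 9 members against monolayer, where 12.6% of all genes met it, and upward by 6 against primary cells, where 11.3% did. No member met it downward in either comparison, against 15.4% and 16.5% of all genes. The median log2 change of the 9 members was 1.34 against monolayer and 1.32 against primary cells, beside 0.04 and -0.02 over all genes tested. Both comparisons use the same sphere libraries and are thus not independent of each other. The members were chosen with earlier results of these data known, so their counts beside those shares are descriptive only. Sums of the macrophage, epithelial and odontoblast markers were also highest in spheres, and their part in these changes was not tested. The epithelial sum in spheres was mostly Ambn: against primary cells 6 of the 8 measured epithelial markers were lower in spheres and 2 higher (median log2 change -2.98). In bulk RNA, a change in the share of cells that express a gene and a change in its RNA per cell cannot be told apart.

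**Figure D1:**
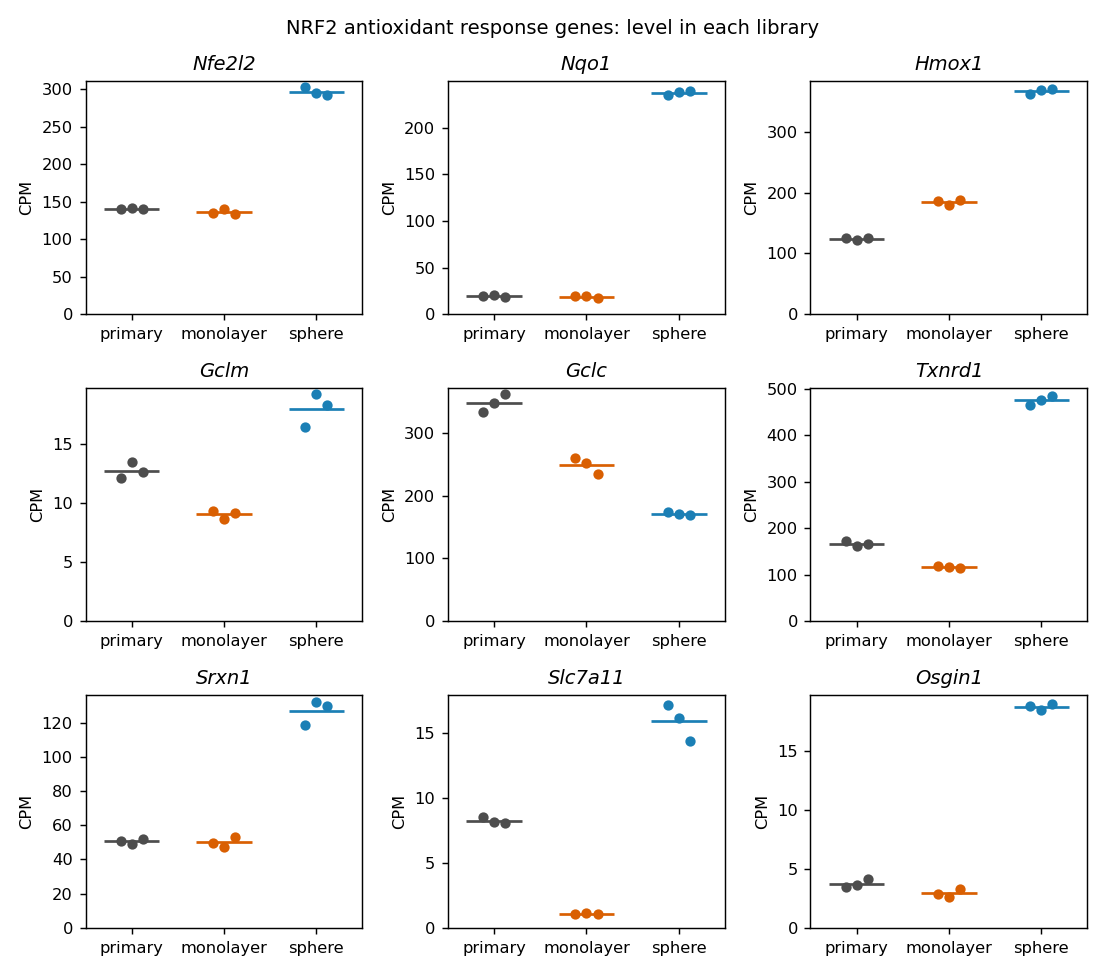
Level of each measured member in every library (CPM, linear axis from 0; points, single libraries; bars, means of 3 libraries). Sphere libraries lie above all others in 8 panels and below all others for Gclc, and for Nfe2l2, Nqo1 and Srxn1 the primary and monolayer points overlap.

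Promoter sequences from RefSeq (GRCm38.p6, from 250 bases before to 50 after each start) were found for 8 of the 10 members, all but Hmox1 and Gclc, and searched for the core of the antioxidant response element, TGACNNNGC, on both strands (GCNNNGTCA on the other). The core was present for 5 of the 8 members, Nfe2l2, Srxn1, Gclm, Txnrd1 and G6pdx, and not in the windows of Nqo1, Slc7a11 and Osgin1. It was present for 14% of all 27025 genes with such a window. A match is a description of letters and not a bound site, and elements farther from the start were not searched. The matches of the members are shown with 10 bases on either side, read 5′ to 3′ on the strand of the gene, with the match in capitals. The Nfe2l2 window is chr2:75704885-75704913, that of Srxn1 chr2:152105542-152105570, that of Gclm chr3:122245413-122245441, that of Txnrd1 chr10:82859104-82859132 and that of G6pdx chrX:74428919-74428947. Counted from the start, the match begins at -240 in Nfe2l2, -134 in Gclm, -57 in G6pdx and 29 in Srxn1, and at -92 in 1 of the 3 Txnrd1 windows.
Nfe2l2: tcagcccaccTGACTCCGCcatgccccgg
Srxn1: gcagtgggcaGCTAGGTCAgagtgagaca
Gclm: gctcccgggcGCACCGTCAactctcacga
Txnrd1: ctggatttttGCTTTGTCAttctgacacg
G6pdx: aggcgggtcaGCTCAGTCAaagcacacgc

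Nfe2l2, the gene of the factor itself (chromosome 2, 75675513 to 75704641, minus strand, GRCm38), was at 141, 142 and 140.5 CPM in the primary libraries, 135, 141 and 133 CPM in the monolayer libraries and 303, 295 and 292 CPM in the sphere libraries. All sphere values lay above the others, and primary and monolayer values overlapped. It was 2.18-fold higher in spheres than in monolayer (log2 change 1.12, SE 0.033, adjusted p = 3.4e-21) and 2.1-fold higher than in primary cells (log2 change 1.07, SE 0.033, adjusted p = 9.6e-21). Its excess over 2-fold against primary cells was slight: the glmTreat adjusted p was 0.017, but 0.058 without primary library 1 and 0.06 without primary library 3. Monolayer and primary cells differed by -0.05 on the log2 scale with a 95% interval of -0.12 to 0.02 (adjusted p = 0.18).

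Nqo1, which encodes a quinone reductase that uses NADPH or NADH (chromosome 8, 107388225 to 107403206, minus strand), showed the largest change among members against primary cells. Its level was 19.7, 20.8 and 18.5 CPM in the primary libraries, 19.2, 19.9 and 17.8 CPM in the monolayer libraries and 235, 238 and 239 CPM in the sphere libraries. The low groups overlapped each other, while every sphere library was more than 10 times higher. The rise was 12.5-fold over monolayer (log2 change 3.64, SE 0.046, adjusted p = 2e-29) and 12.1-fold over primary cells (log2 change 3.59, SE 0.045, adjusted p = 2.3e-29). No other gene of the table overlaps its span.

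Hmox1, the inducible haem oxygenase that opens the haem ring to biliverdin, iron and carbon monoxide (chromosome 8, 75093621 to 75100589, plus strand), was the only measured member higher in monolayer than in primary cells. It stood at 126, 122 and 125 CPM in the primary libraries, 187, 179.8 and 187 CPM in the monolayer libraries and 362, 368 and 371 CPM in the sphere libraries, so that the 3 groups were separate and ordered. The steps were 1.48-fold from primary cells to monolayer (log2 change 0.57, SE 0.032, adjusted p = 1.7e-14) and 1.99-fold from monolayer to spheres (log2 change 0.99, SE 0.032, adjusted p = 2.4e-20), or 2.95-fold from primary cells to spheres. Macrophages are a known site of Hmox1 expression. The macrophage marker sum was also highest in spheres (48 to 51 CPM). It was lower in monolayer (9.82 to 11 CPM) than in primary cells (24.8 to 27.7 CPM), where Hmox1 went the other way. The part of macrophages in the Hmox1 changes was not tested.

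Txnrd1, the cytosolic thioredoxin reductase, a selenoprotein (chromosome 10, 82833951 to 82897712, plus strand), was at 172, 162 and 166 CPM in the primary libraries, 118, 117 and 114 CPM in the monolayer libraries and 465, 476 and 483 CPM in the sphere libraries. The 3 groups did not overlap, and the order was monolayer, primary, spheres. Spheres exceeded monolayer 4.08-fold (log2 change 2.03, SE 0.033, adjusted p = 7.1e-27) and primary cells 2.85-fold, and monolayer was 1.43-fold below primary cells (log2 change -0.52, SE 0.033, adjusted p = 1.9e-13). Other entries, themselves listed at 0, overlap 22.9% of the Txnrd1 span, and Txnrd1 counts may therefore come from part of the gene. Srxn1, the sulfiredoxin that repairs over-oxidized peroxiredoxins (chromosome 2, 152105516 to 152111376, plus strand), had 50.7, 49.2 and 52 CPM in the primary libraries, 49.7, 47.3 and 53.3 CPM in the monolayer libraries and 119, 132 and 129 CPM in the sphere libraries. Primary and monolayer values were interleaved, and spheres were 2.53-fold above monolayer (log2 change 1.34, SE 0.046) and 2.5-fold above primary cells (log2 change 1.32, SE 0.046), with adjusted p = 1.2e-19 and 1.3e-19.

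Slc7a11 encodes xCT, the transporter subunit that brings in cystine for glutathione synthesis (chromosome 3, 49892526 to 50443614, minus strand), and it varied most between the cultures. Its level was 8.57, 8.14 and 8.05 CPM in the primary libraries, 1.04, 1.17 and 1.08 CPM in the monolayer libraries and 17.2, 16.2 and 14.4 CPM in the sphere libraries. The monolayer values rest on 47, 47 and 41 counts. Groups did not overlap, with monolayer lowest and spheres highest. Spheres were 14.5-fold above monolayer (log2 change 3.85, SE 0.12, adjusted p = 7.3e-21) and 1.93-fold above primary cells (log2 change 0.94, SE 0.083, adjusted p = 9.3e-11), while monolayer was 7.51-fold below primary cells (log2 change -2.91, SE 0.12, adjusted p = 4.4e-17). That fall was the only change of a member beyond 2-fold in that comparison.

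Glutamate-cysteine ligase, the enzyme of the first step of glutathione synthesis, is a pair of a catalytic chain (Gclc) and a modifier chain (Gclm), and its 2 genes went opposite ways in spheres. Gclc (chromosome 9, 77754535 to 77794485, plus strand) had 334, 347 and 363 CPM in the primary libraries, 260.2, 252 and 235 CPM in the monolayer libraries and 173, 171 and 169.5 CPM in the sphere libraries. It was highest in primary cells and lowest in spheres, with no overlap. Spheres were 1.46-fold below monolayer (log2 change -0.54, SE 0.037, adjusted p = 5.5e-13) and 2.03-fold below primary cells (log2 change -1.02, SE 0.037, adjusted p = 4.8e-19). Gclm (chromosome 3, 122245557 to 122270732, plus strand) had 12.1, 13.5 and 12.6 CPM in the primary libraries, 9.33, 8.61 and 9.12 CPM in the monolayer libraries and 16.4, 19.2 and 18.3 CPM in the sphere libraries. Spheres were highest and monolayer lowest, with no overlap. The sphere level was 1.99-fold that of monolayer (log2 change 1, SE 0.077, adjusted p = 6.5e-12) and 1.41-fold that of primary cells (log2 change 0.5, SE 0.073, adjusted p = 7.5e-07). Other entries of the table, Gm17494 on the opposite strand and Gm6061, cover 58.7% of the Gclm span, and Gclm counts may therefore come from part of the gene.

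The ratio of Gclm to Gclc counts within a library needs no scaling between libraries. Its size depends on the lengths of both genes and on the entries that overlap Gclm. The ratio is therefore compared between groups only and is no ratio of the 2 chains. It was 3.62, 3.89 and 3.47 Gclm counts per 100 Gclc counts in primary cells, 3.58, 3.42 and 3.87 in monolayer and 9.45, 11.3 and 10.8 in spheres. Primary cells and monolayer overlapped, at means of 3.66 ± 0.21 and 3.63 ± 0.23 (SD, n = 3), and all sphere libraries were higher, at 10.5 ± 0.93. The mean log2 ratio of spheres exceeded that of monolayer by 1.53 and that of primary cells by 1.52. With 3 libraries against 3, the two-sided exact permutation test gave p = 0.1 for each, the smallest p this design allows, and p = 0.7 for monolayer against primary cells.

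**Figure D2:**
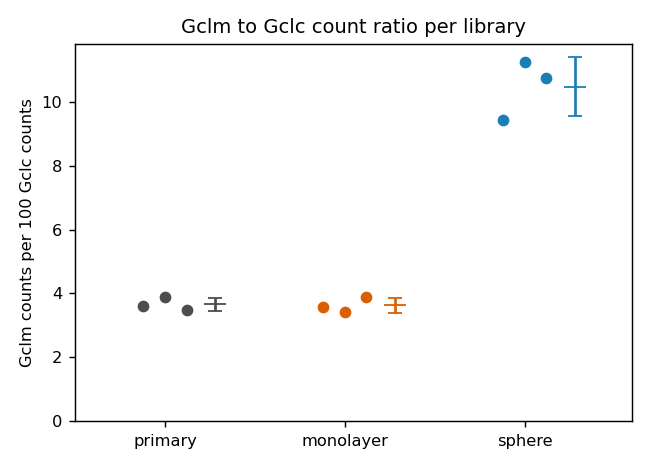
Gclm counts per 100 Gclc counts in each library (points) with mean and SD of 3 libraries (bars). The sphere libraries lie between 9.45 and 11.3, and all primary and monolayer libraries between 3.42 and 3.89.

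Osgin1, an oxidative stress induced growth inhibitor (chromosome 8, 119434124 to 119446256, plus strand), was at 3.46, 3.67 and 4.14 CPM in the primary libraries, 2.86, 2.62 and 3.3 CPM in the monolayer libraries and 18.8, 18.4 and 19 CPM in the sphere libraries. Spheres were far above the other groups, which lay close together without overlapping. The rise was 6.4-fold over monolayer (log2 change 2.68, SE 0.098, adjusted p = 5.2e-19) and 4.99-fold over primary cells (log2 change 2.32, SE 0.092, adjusted p = 3.3e-18), and monolayer was 1.28-fold below primary cells (log2 change -0.36, SE 0.12, adjusted p = 0.007).

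G6pdx, the glucose-6-phosphate dehydrogenase that opens the pentose phosphate pathway (chromosome X, 74409483 to 74429194, minus strand), was listed at 0 in all 9 libraries. Its span lies wholly within that of Ikbkg on the opposite strand (74393290 to 74453854), which has 32609 counts over the 9 libraries. In this table all 800 protein-coding genes that lie wholly within a gene of the opposite strand have at most 3 counts, and so do all 396 within a gene of the same strand only, against 31.8% of those that overlap no gene. The 0 of G6pdx is therefore no measurement of its level, and it enters no comparison here. G6pd2, its retrogene paralog on another chromosome, had 2 counts in all.

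Between monolayer and primary cells, where 71.3% of all genes changed, 6 of the 9 measured members did. Of these, 5 were lower in monolayer (Slc7a11, Txnrd1, Gclm, Gclc and Osgin1), Hmox1 was higher, and Nfe2l2, Nqo1 and Srxn1 did not pass, beside 36.9% of all genes tested lower and 34.4% higher. The libraries of the 6 did not overlap, as for 74.4% of all genes. Only Slc7a11 changed beyond 2-fold, where 7.82% of all genes did so downward and 6.18% upward. The log2 change was -0.05 for Nqo1 with a 95% interval of -0.16 to 0.06 and -0.02 for Srxn1 with an interval of -0.11 to 0.08. These 3 verdicts depend on the scaling. Scaled to total counts, which moved the median of all genes in this comparison from -0.03 to -0.32, Nfe2l2 (-0.35), Nqo1 (-0.35) and Srxn1 (-0.31) passed as lower in monolayer, and the split over all genes called went from 48.2% to 25.6% higher. Relative to that shift they were near 0, and Nfe2l2 also passed at -0.08 (adjusted p = 0.039) without monolayer library 2. In the comparison of spheres with monolayer the same scaling moved the median of all genes from 0.04 to 0.34 and the share higher among genes called from 51.9% to 67.4%, the 9 members kept their directions and calls, the fall of Gclc went from -0.54 to -0.24, and Hmox1 (1.3) and Gclm (1.3) also passed as beyond 2-fold.

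**Figure D3:**
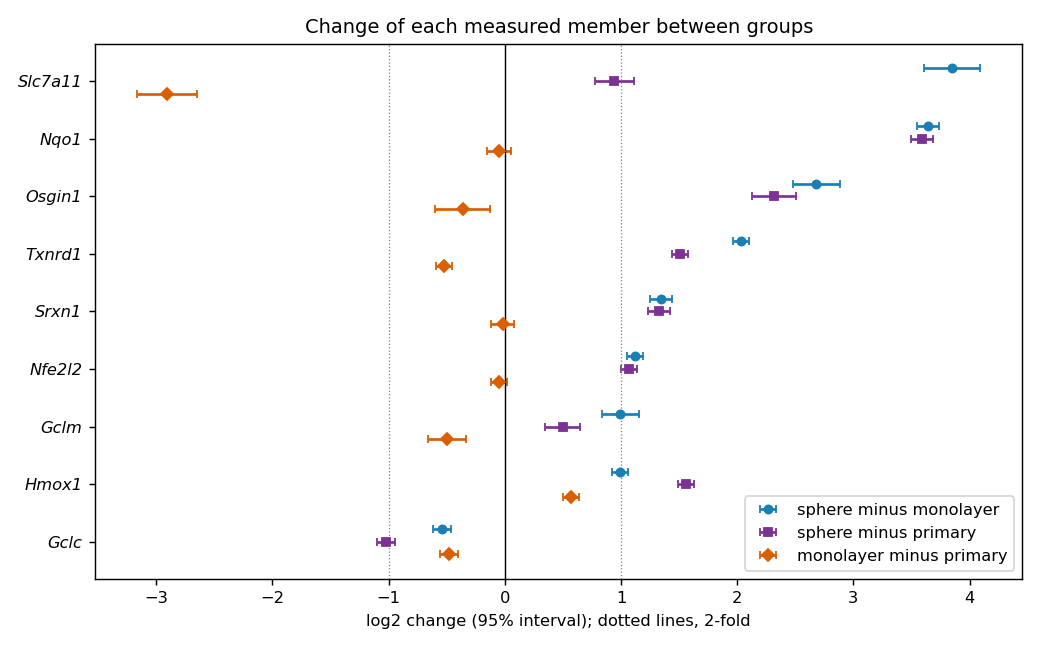
Log2 change of each measured member in the 3 comparisons, with 95% intervals from the edgeR fit over 9 libraries. Changes toward spheres are positive for 8 members and negative for Gclc, and Slc7a11 has both the largest rise from monolayer to spheres (3.85) and the largest fall from primary cells to monolayer (-2.91).

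Genes with a profile most like that of each member were found by the root mean square difference of log2 CPM, centred on each gene's mean, over the 9 libraries. This measure follows the 3 group means closely, and whether libraries of a group have separate sources is not stated. The nearest gene to Nfe2l2 was Naa50 at 0.014 and to Srxn1 Optn at 0.046. Nearest to Hmox1 was Dnase2a (0.041), to Txnrd1 Znrf3 (0.051), to Gclc Ift140 (0.04) and to Gclm Riox1 (0.049). For Nqo1 it was Dlgap1 (0.074), for Osgin1 Sdc3 (0.087) and for Slc7a11 Ak4 (0.15). The members were not each other's nearest neighbours. The closest pair was Nfe2l2 and Srxn1 at 0.14, and 168 other genes lay nearer to Nfe2l2 and 74 nearer to Srxn1. Gclc was far from all other members, with 9765 genes nearer to it than Gclm at 0.72.

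Genes that control NRF2 changed in both directions, and most by less than 2-fold. Of 14 regulators, 8 rose and 3 fell from monolayer to spheres (median log2 change 0.22), beside 40.7% and 37.7% of all genes tested. Beyond 2-fold 3 were higher and 0 lower, beside 12.6% and 15.4% of all genes. Against primary cells 10 were higher and 4 lower (median 0.26), beside 38.9% and 40.6%. Sqstm1, which encodes p62, an autophagy receptor that binds KEAP1, was at 598, 595 and 604 CPM in the primary libraries, 705, 666 and 711 CPM in the monolayer libraries and 1393, 1476 and 1487 CPM in the sphere libraries. Its groups were separate, and spheres were 2.09-fold above monolayer (log2 change 1.07, SE 0.032, adjusted p = 4.1e-21) and 2.42-fold above primary cells (log2 change 1.28, SE 0.032, adjusted p = 9e-23). Keap1 itself was at 47.4, 50.5 and 51 CPM in the primary libraries, 57.1, 54.1 and 59.2 CPM in the monolayer libraries and 54.4, 61.6 and 65.6 CPM in the sphere libraries. Its culture groups overlapped (log2 change 0.1, SE 0.055, adjusted p = 0.11), although the difference passed without sphere library 1 (0.17, adjusted p = 0.0028) and with total count scaling (0.4), and 34.4% of its span is covered by another gene. Spheres exceeded primary cells in Keap1 by 0.29 on the log2 scale (adjusted p = 3.9e-05). The ligase genes Cul3 and Rbx1 were higher in spheres than in monolayer by 0.25 and 0.19, and than in primary cells by 0.52 and 0.43. Gsk3b, whose kinase marks NRF2 for a separate ligase, rose by 0.33 against monolayer, and Btrc, which encodes the adaptor of that ligase, was lower by -0.56 (adjusted p = 2.1e-10).

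The DNA-binding partners and competitors of NRF2 were divided. Among the small MAF genes, Maff was at 27.7, 27.1 and 26.9 CPM in the primary libraries, 14.2, 11.8 and 13.5 CPM in the monolayer libraries and 42.7, 44.6 and 46.6 CPM in the sphere libraries, a 3.39-fold rise from monolayer (log2 change 1.76, SE 0.061, adjusted p = 1.4e-19). Mafk was lower in spheres, at 40.9 ± 1.2 CPM against 63.1 ± 2.8 CPM in monolayer (log2 change -0.63, adjusted p = 4.5e-13), and Mafg did not pass against monolayer (0.06, adjusted p = 0.079), though it did without sphere library 1 (0.08, adjusted p = 0.03) and with total count scaling (0.37). Bach1, which encodes a repressor that competes with NRF2 at Hmox1 and is released by haem, was 1.38-fold higher in spheres than in monolayer, at 91.9 ± 1.7 against 66.8 ± 2.4 CPM (adjusted p = 2.3e-11). Its relative Bach2 was lower at 1.55 ± 0.092 against 3.43 ± 0.83 CPM (log2 change -1.14, adjusted p = 2.8e-06). The related factor gene Nfe2l1 rose by 0.42 on the log2 scale against monolayer, to 761 ± 8.3 CPM. Nfe2l3 went from 0.295 ± 0.12 CPM in monolayer to 2.68 ± 0.5 CPM in spheres (log2 change 3.19, SE 0.28, adjusted p = 7.4e-11). Nfe2 was at or below 0.555 CPM in every library and did not pass between the cultures (log2 change -0.84, adjusted p = 0.078, but 0.045 without monolayer library 1).

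**Figure D4:**
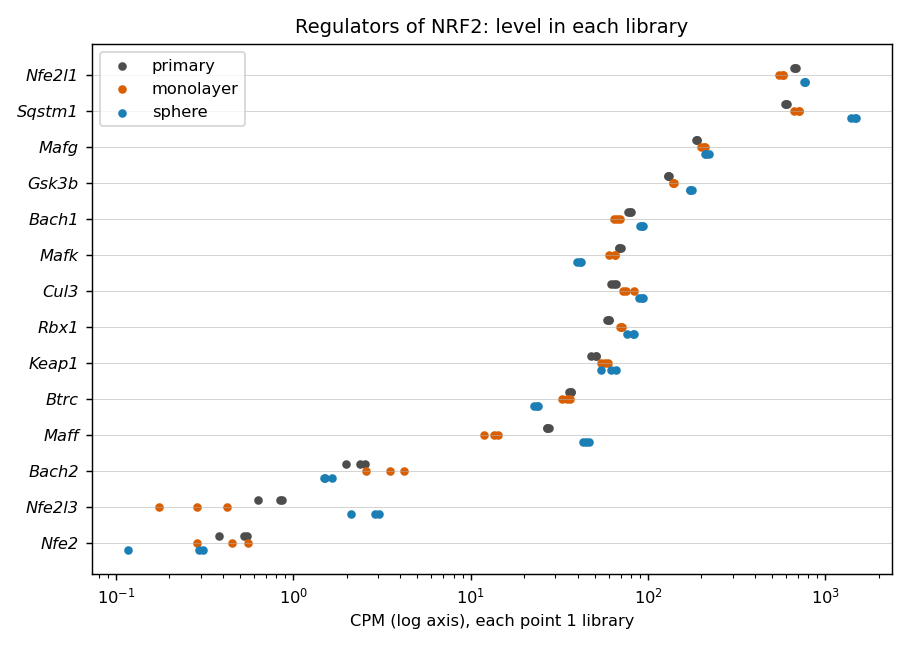
Level of 14 regulators of NRF2 in each library (CPM, log axis; points, single libraries). Sphere libraries stand clearly above both other groups for Sqstm1, Maff and Nfe2l3 and below them for Mafk, Btrc and Bach2, and for Keap1 the sphere and monolayer points overlap.

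Between monolayer and primary cells, 7 regulators were higher and 5 lower (median 0.01), beside 34.4% and 36.9% of all genes tested. With total count scaling, however, 0 regulators were higher and 9 lower. Maff was lower in monolayer under both (log2 change -1.04, adjusted p = 6e-14).

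Other genes of glutathione metabolism did not follow 1 direction. Gsr, the glutathione reductase that regenerates reduced glutathione with NADPH, rose most of this list in both sphere comparisons. It was at 41.1, 40.7 and 40.3 CPM in the primary libraries, 46.9, 46.5 and 45.1 CPM in the monolayer libraries and 492, 486 and 486 CPM in the sphere libraries. Its sphere libraries were about level with each other and far above the rest, 10.6-fold over monolayer (log2 change 3.4, adjusted p = 2.2e-31) and 12-fold over primary cells (log2 change 3.58, adjusted p = 1.1e-31). Gss, the glutathione synthetase, rose from 2.13 ± 0.39 to 3.96 ± 0.12 CPM between monolayer and spheres (adjusted p = 2.6e-05), but other genes cover 81.8% of its span. Ggt5, which breaks down extracellular glutathione conjugates, was 33.2-fold lower in spheres than in monolayer, at 0.283 ± 0.13 against 9.4 ± 0.79 CPM (adjusted p = 1.5e-18). In all, 5 of 8 measured genes of this list rose and 3 fell from monolayer to spheres (median 0.77), beside 40.7% and 37.7% of all genes tested. Against primary cells 2 were higher and 5 lower (median -0.64), beside 38.9% and 40.6%.

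ATF4 is the transcription factor of the amino acid stress response, and Slc7a11 is known as a target of it as well as of NRF2. The part of ATF4 in the Slc7a11 level was not tested. Of 14 measured ATF4 response genes, 13 were lower in monolayer than in primary cells, where Nupr1 was higher. Of all genes tested, 36.9% were lower there and 34.4% higher. From monolayer to spheres 12 rose and 2 fell (median 1.12), beside 40.7% and 37.7% of all genes tested. Against primary cells 10 of the 14 were lower in spheres and 4 higher (median -0.36), beside 40.6% and 38.9%. Trib3 was at 212 ± 6.4 CPM in the primary libraries, 15.9 ± 1.3 CPM in the monolayer libraries and 95.9 ± 3.7 CPM in the sphere libraries, Psat1 at 174 ± 4.7, 41.3 ± 1.4 and 149.7 ± 2.3 CPM, and Asns at 228 ± 2.6, 82.6 ± 2.5 and 189 ± 6.2 CPM. Cth, the enzyme that makes cysteine from cystathionine, had the same order, at 26.8 ± 1.4, 3.32 ± 0.29 and 25.1 ± 0.39 CPM, with no call between spheres and primary cells (adjusted p = 0.16). Slc3a2, the heavy chain that partners xCT, was at 459 ± 2.2, 228 ± 7.3 and 357 ± 9.2 CPM. Chac1, which degrades glutathione in the cytosol, was at 81.2 ± 0.76, 19.7 ± 1.6 and 42.9 ± 2.5 CPM. Atf3 was at 37.2 ± 0.77, 1.01 ± 0.13 and 40.8 ± 0.32 CPM.

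Detoxification genes often counted among NRF2 targets mostly fell in spheres. Of 17 measured, 11 were lower and 4 higher than in monolayer (median -0.73), beside 37.7% and 40.7% of all genes tested. Against primary cells 10 were lower and 5 higher (median -0.94), beside 40.6% and 38.9%. Ephx1, the microsomal epoxide hydrolase, went from 467 ± 15 CPM in monolayer to 44.3 ± 1.5 CPM in spheres, 10.6-fold lower (adjusted p = 1.2e-30), with 244 ± 4.2 CPM in primary cells. Mgst1 and Gstm2, both glutathione transferases, were 10.5-fold and 6.48-fold lower in spheres than in monolayer (adjusted p = 1.9e-22 and 1.2e-24). Those that rose included Abcc4, an exporter of organic anions, 5.66-fold over monolayer to 117 ± 2.3 CPM (adjusted p = 1.7e-26), and the glutathione transferase gene Gstp1, 2.11-fold to 198 ± 11 CPM (adjusted p = 1.7e-14). Aox1, an aldehyde oxidase, rose 1.26-fold over monolayer and 2.59-fold over primary cells. Near-identical family members such as the Gstm genes may share reads, so single values there are uncertain. Between monolayer and primary cells 9 of the 17 were higher and 5 lower, beside 34.4% and 36.9% of all genes tested. With total count scaling, however, 7 of the 17 were higher and 8 lower.

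Peroxide and thioredoxin genes other than the members were also mixed. From monolayer to spheres 40.7% of all genes tested rose and 37.7% fell. Of the 5 measured genes of this list, 4 rose modestly, by 0.21 to 0.46 on the log2 scale. The exception was Prdx6, a peroxiredoxin that reduces lipid peroxides, at 388 ± 5.7 CPM in the primary libraries, 1539 ± 18 CPM in the monolayer libraries and 130.1 ± 6 CPM in the sphere libraries, 11.8-fold lower in spheres than in monolayer (adjusted p = 8.6e-32). Txn1, the thioredoxin that Txnrd1 reduces, was at 120.4 ± 4, 84.8 ± 3.3 and 104 ± 3.1 CPM in the same order, so that in spheres the reductase was above and the thioredoxin below its level in primary cells. Against primary cells 2 of the 5 were higher and 3 lower, beside 38.9% and 40.6% of all genes tested. Among 13 other antioxidant enzymes, 4 rose and 8 fell from monolayer to spheres (7 and 6 with total count scaling). Gpx3, the secreted glutathione peroxidase, fell 15.4-fold from 11412 ± 247 to 740.2 ± 1.2 CPM (adjusted p = 1.1e-34). Against primary cells 5 of the 13 were higher and 6 lower. Both splits stand beside the same shares of all genes tested as above.

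None of the member matches printed holds the AP-1 motif TGACTCA or its complement TGAGTCA, whereas in the promoter windows of 3 list genes the matches of Prdx1 (chr4:116685456-116685484), Me1 (chr9:86695902-86695930) and 1 of the 2 of Pir (chrX:164269207-164269235) hold both motifs over the same bases. They are shown because these 3 genes carry the same core, TGACTCAGC.
Prdx1: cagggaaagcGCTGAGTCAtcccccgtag
Me1: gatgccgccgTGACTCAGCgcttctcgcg
Pir: gcatagagagGCTGAGTCActcccccaaa

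Prdx1, a peroxiredoxin, rose from 208 ± 5.9 CPM in monolayer to 254 ± 3.6 CPM in spheres (log2 change 0.28, adjusted p = 1.2e-08), against 138 ± 2.4 CPM in primary cells. Me1, the cytosolic malic enzyme that makes NADPH, was at 99.8 ± 1.3 CPM in the primary libraries, 137 ± 2.1 CPM in the monolayer libraries and 180.1 ± 0.66 CPM in the sphere libraries (log2 change 0.4 over monolayer, adjusted p = 1.7e-11). Pir, which encodes pirin, went the other way, from 13.4 ± 0.32 and 12.5 ± 0.75 CPM in primary cells and monolayer to 6.7 ± 0.55 CPM in spheres (log2 change -0.91 against monolayer, adjusted p = 1.9e-10).

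NADPH supply was measured without G6pdx. Of 6 such genes, 4 were higher in spheres than in monolayer by less than 1.4-fold, 1 was lower and 1 did not pass. Of all genes tested, 40.7% were higher there and 37.7% lower. Against primary cells 3 of the 6 were higher and 3 lower, beside 38.9% and 40.6%. Idh1, the cytosolic isocitrate dehydrogenase, was the one that fell, from 288 ± 9 to 68.6 ± 2.9 CPM, 4.21-fold (adjusted p = 7e-26). Pgd, the next NADPH-producing step after G6pdx, was at 122 ± 1, 134 ± 3.9 and 144 ± 0.93 CPM in primary cells, monolayer and spheres, and its rise over monolayer (log2 change 0.1, adjusted p = 0.01) was lost with DESeq2 (0.056), with RLE factors (0.062) and with a fit of only the cultures compared (0.12). That last fit also lost the rise of Tkt (log2 change 0.079, adjusted p = 0.06). Pgls, which did not pass, did so without sphere library 1 (0.16, adjusted p = 0.0013) and with total count scaling (0.37). Without sphere library 3 the change of Pgls was -0.005. H6pd, the paralog of G6pdx in the endoplasmic reticulum, was 11.7-fold lower in spheres than in monolayer, at 33.2 ± 0.77 against 390.04 ± 6.9 CPM (adjusted p = 3.1e-31). Of the other measured paralogs, Txnrd3 rose 2.79-fold and Osgin2 1.41-fold over monolayer, and the mitochondrial Txnrd2 was 1.24-fold lower in spheres (adjusted p = 0.002, but 0.93 with total count scaling). Hmox2 did not pass, at 102 counts in all, but other genes cover 42.9% of its span, so its counts may come from part of the gene. Nqo2, inside the span of Serpinb6a, was listed at 0.

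The haem and iron genes around Hmox1 gave 3 higher and 3 lower of 7 in spheres against monolayer (4 and 2 with total count scaling). Of all genes tested, 40.7% were higher there and 37.7% lower. Against primary cells 3 of the 7 were higher and 4 lower, beside 38.9% and 40.6%. Both ferritin genes were highest in spheres. Ftl1 was at 1347 ± 54 CPM in the primary libraries, 2131 ± 126 CPM in the monolayer libraries and 3558 ± 79 CPM in the sphere libraries, and Fth1 at 993 ± 12, 1312 ± 10.3 and 1634 ± 41 CPM, the same order as Hmox1. Slc48a1, which carries haem out of the endolysosome, was at 126 ± 1.2, 229 ± 6.6 and 259 ± 5.9 CPM. Slc40a1, the iron exporter ferroportin and a known target of NRF2 in mouse macrophages, fell instead, to 26.1 ± 0.72 CPM in spheres from 118 ± 4.2 CPM in monolayer, 4.54-fold (adjusted p = 2.3e-25). Ftl1 has 27% of its span covered by other genes. Ferritin pseudogenes could share its reads.

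**Figure D5:**
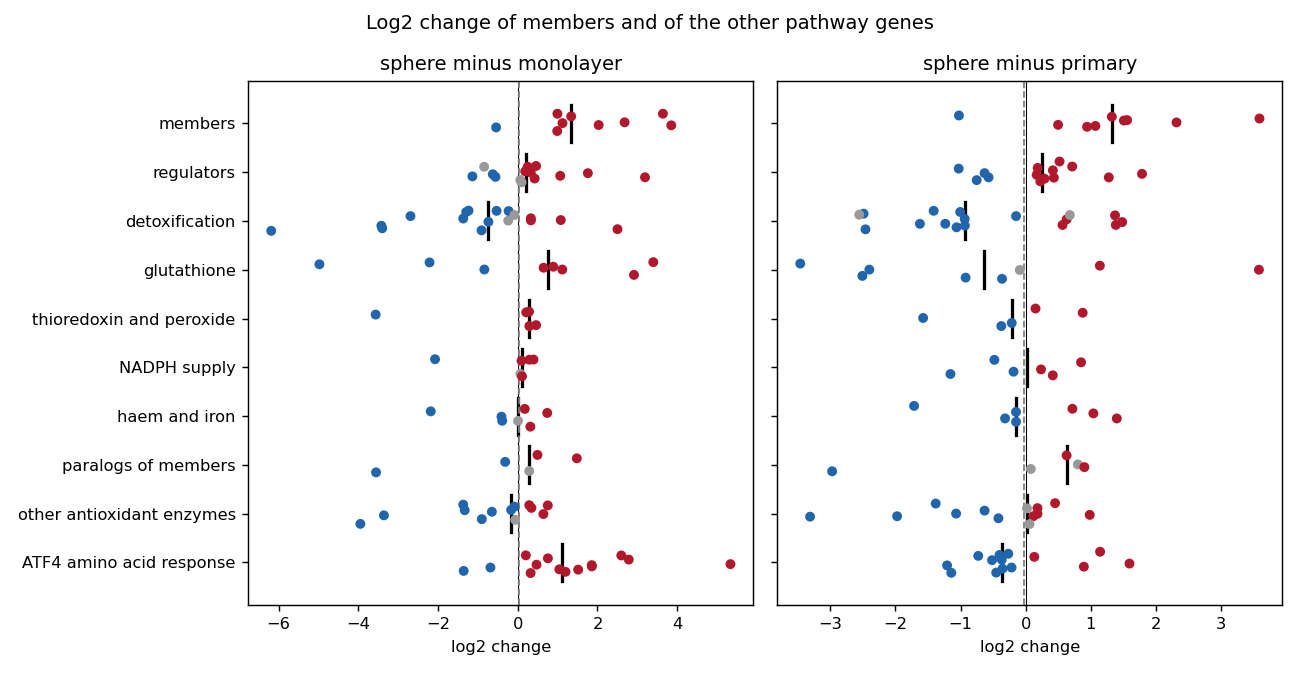
Log2 change of every measured member and list gene in spheres against monolayer (left) and against primary cells (right); red, higher and blue, lower at an adjusted p under 0.05; grey, not passed; black ticks, list medians; dashed line, median of all genes tested. Members have medians of 1.34 and 1.32, and the detoxification list has medians of -0.73 and -0.94.

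Over the 9 pathway lists together, 46 of 89 measured genes rose and 34 fell from monolayer to spheres. The shares over all genes tested were 40.7% and 37.7%. Against primary cells 36 of the 89 were higher and 46 lower, beside 38.9% and 40.6% of all genes. The median log2 changes of the 89 were 0.18 and -0.15. Beyond 2-fold, 15 of the 89 were higher and 17 lower than in monolayer, beside 12.6% and 15.4% of all genes, and 9 were higher and 17 lower than in primary cells, beside 11.3% and 16.5%.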

How the data were processed

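The authors deposited 1 table of whole-number counts per gene, not normalized, for 9 libraries. Per the submitters' processing notes, fastp 0.20.0, HISAT2 2.1.0, featureCounts 1.6.0 and build GRCm38 were used; no annotation release or strand setting is named in the sources used here. For each member the stated length equals its whole span, so intronic reads may be counted, and strand cannot separate overlapping genes.

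In R 4.3.3, edgeR 4.0.16 filtered genes (filterByExpr, minimum count 10), scaled libraries by TMM and fitted all 9 with robust glmQLFit, followed by glmQLFTest and, at a fold of 2, glmTreat for changes beyond 2-fold, all two-sided, adjusted by Benjamini-Hochberg over 15675 genes with a threshold of 0.05. Standard errors are the log2 change over the square root of F. The biological coefficient of variation was 4.03%. Replicate pairs differed beyond sampling noise (chi-square 2.53 to 9.67 per degree of freedom). The code was tested on simulated data. DESeq2 1.42.0 and other settings were alternatives.

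Members, the 9 pathway and 6 marker lists were chosen with earlier results of these data known. Named are all members and regulators, then up to 4 genes per list and comparison by adjusted p, and others with their values. The values of 1 erythroid marker are not reported singly here.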

Additional observations from a re-analysis of the deposited data

How the results depend on the processing

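Calls and directions of all 9 measured members in both sphere comparisons were the same under each of the 14 alternatives (DESeq2, RLE or total count scaling, no filter or a minimum count of 50, only the groups compared, a replicate block, no robust estimation, and each library left out). With total count scaling, genes higher in monolayer than in primary cells went from 5389 to 3042, genes lower from 5787 to 8856, and members lower from 5 to 8, by the construction of that scaling. Between monolayer and primary cells it also reversed Keap1 (-0.10), Cul3 (-0.027), Rbx1 (-0.051), Sqstm1 (-0.085), Mafg (-0.18), Gsk3b (-0.21), Gss (-0.047), Gsr (-0.11), Pgd (-0.16), Taldo1 (-0.17), Blvra (-0.20) and Osgin2 (-0.16), and of the list genes not named elsewhere Cbr1 (-0.06), Fech (-0.055), Gpx1 (-0.28), Gpx4 (-0.013), Gstm1 (-0.21), Prdx2 (-0.15) and Sod3 (-0.25). Srxn1, near 0 there, turned positive with DESeq2 (0.0218) and RLE (0.0217), and ran from -0.062 to 0.024 with single libraries left out (highest without monolayer replicate 2). Nfe2 ran from -0.40 to 0.049 (highest without monolayer replicate 1). Between spheres and monolayer, total count scaling reversed Glrx (0.24), Prdx2 (0.22), Cbr3 (0.22), Gpx4 (0.14), Gstm1 (0.076) and Abcc3 (0.066). Of these, Glrx, Prdx2, Cbr3 and Gpx4 passed as higher in spheres under that scaling. Blvrb turned negative in that comparison with DESeq2 (-0.021), with RLE (-0.020) and with some single libraries left out. The cause of these shifts was not tested.

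Leaving out single libraries gave 6 to 7 members called between monolayer and primary cells, 5 to 6 of them lower, and 5 to 6 members beyond 2-fold between spheres and primary cells. Same-numbered libraries did not deviate together over all genes tested (correlations of -0.01 to 0.03). A weak shared source could escape this measure, so whether the replicate number marks a pairing stays unknown. With the replicate number as a block, 12265, 12439 and 11111 genes were called in spheres against monolayer, spheres against primary cells and monolayer against primary cells, beside 12287, 12472 and 11176 without. The block changed no call of a member. Low counts limit Slc7a11 in monolayer, Nfe2 and Nfe2l3.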
